A study of Mus musculus with 3 samples.

Results

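The genes described here encode the machinery that displays intracellular peptides on the cell surface with major histocompatibility complex (MHC) class I. They comprise the heavy chains H2-K1, H2-D1 and H2-T23, the light chain B2m, the peptide transporter subunits Tap1 and Tap2, tapasin (Tapbp), the inducible proteasome subunits Psmb8 and Psmb9, and the transactivator Nlrc5. They are a fixed list of 10 of the 32285 genes in each matrix and were matched by gene symbol, which found every member. Their unique molecular identifiers (UMIs) were added up over a class of cells in each library and are given as UPM, the number per 1000000 UMIs of all genes in those cells.

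The cells came from dorsal skin of male C57Bl/6 mice at 8 weeks of age, in the resting phase of the hair cycle, after enrichment of CD45+ cells on magnetic beads. WT_Ctrl was wild-type skin without ultraviolet B (UVB), WT_UV was wild-type skin after 3 UVB exposures, and RP_UV was skin of Rosa26-rtTA; Tre-Ptgs2 mice after 3 UVB exposures. In the RP mice doxycycline switches on rat Ptgs2, which encodes the prostaglandin-producing enzyme Cox-2, through a transactivator made from the ubiquitous Rosa26 locus, so its overexpression was not limited to a cell type. Each group had 1 library of single-cell 3′ RNA sequencing, so no test or p-value was computed, and every interval below covers counting error only. WT_Ctrl and RP_UV shared a flow cell and WT_UV was on another, so the sequencing run cannot be told apart from the group wherever WT_UV is compared, while RP_UV and WT_Ctrl differ in both UVB and genotype. The 3 comparisons share libraries and are not independent of one another.

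After filtering, 5309, 5225 and 6070 cells remained in WT_Ctrl, WT_UV and RP_UV, with median depths of 4246, 10557 and 3774 UMIs. Ptgs2 stood at 14.4, 118 and 486 UPM over all kept cells, in the order of the labels, although reads of the rat transgene may count in part as the mouse gene. Pairs of libraries shared 8 to 11 cell barcodes. Cell classes were rebuilt from marker panels and are to be read as X-like. In all, 1890, 2198 and 2230 cells were named macrophages or monocytes and 1167, 513 and 1084 keratinocytes, in the order WT_Ctrl, WT_UV and RP_UV, which holds for every series of 3 values below.

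Class I molecules carry peptides cut by the proteasome in the cytosol. The transporter moves these peptides into the endoplasmic reticulum, where tapasin helps load them onto a heavy chain bound to B2m, and the complex is read at the surface by CD8 T cells and natural killer cells. Interferons, above all interferon-γ, are known to exchange standard proteasome subunits for inducible ones and to raise transcription of the whole set through Irf1 and Nlrc5. In skin, keratinocytes present class I antigens to resident T cells.

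Most of these genes lie together in the MHC on chromosome 17 of mm10, for which RefSeq positions on GRCm38.p6 are given. Psmb9 spans chr17:34182030-34187330, Tap1 chr17:34187556-34197225, Psmb8 chr17:34198195-34201454 and Tap2 chr17:34204479-34216321, so that these 4 members follow one another. H2-K1, at chr17:33996012-34000619, and H2-D1, at chr17:35263094-35267497, lie further apart. Tapbp is at chr17:33919478-33929290 and H2-T23 at chr17:36029977-36032701, and B2m, at chr2:122147687-122153082, and Nlrc5, at chr8:94434335-94527272, are on other chromosomes. Stretches just upstream of the start sites are shown for 4 members because the genes were lower together in the irradiated libraries. All 4 hold motifs of the kinds marked below, which not every member does. The promoter table of RefSeq held 8 of the 10 members and none for Tap2 or Nlrc5. Capitals mark the letters of 4 short motifs, searched on both strands: AANNGAAA (the core bound by interferon regulatory factors), the kappa B core GGGATTCCC, TGACG (the X2 core) and ATTGG (the Y box core). No 2 of the marked motifs overlap in the stretches shown.
H2-K1, chr17:34000349-34000467, minus strand: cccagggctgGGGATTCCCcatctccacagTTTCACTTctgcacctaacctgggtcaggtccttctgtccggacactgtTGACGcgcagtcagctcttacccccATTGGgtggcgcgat
H2-D1, chr17:35262914-35263055, plus strand: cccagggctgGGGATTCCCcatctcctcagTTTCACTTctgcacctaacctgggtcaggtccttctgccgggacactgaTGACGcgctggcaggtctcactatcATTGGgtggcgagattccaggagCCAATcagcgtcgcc
B2m, chr2:122147540-122147648, plus strand: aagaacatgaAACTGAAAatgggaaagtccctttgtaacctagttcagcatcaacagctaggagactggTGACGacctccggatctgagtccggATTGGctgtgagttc
Tap1, chr17:34187324-34187484, plus strand: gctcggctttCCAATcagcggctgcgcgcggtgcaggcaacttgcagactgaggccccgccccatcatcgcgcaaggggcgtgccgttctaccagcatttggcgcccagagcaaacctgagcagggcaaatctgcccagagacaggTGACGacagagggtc

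The H2-K1 and H2-D1 stretches matched at 89 of the first 100 bases from the kappa B core onward, and in both the first Y box core began 94 bases after the start of the kappa B core. Tap1 and Psmb9 face away from each other, and their start positions differ by 226 bases. The Tap1 stretch begins just inside Psmb9 and otherwise lies between the 2 starts, where the same bases precede both genes. The record of H2-K1 reaches beyond its shown stretch, since RefSeq also lists a start further upstream. Of 32851 promoters in the table, 0.353% held the kappa B core, 20.8% the X2 core, 23.9% the interferon regulatory factor core and 37.4% the Y box core. Among the 8 members with a promoter, 2, 5, 4 and 7 held these motifs in the same order. Psmb8, whose stretch is not shown, held none of them. The interferon regulatory factor core was also absent from Tap1, Tapbp and Psmb9. A match describes letters in the window and was not tested as a binding site.

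In keratinocytes every member was lower in WT_UV than in WT_Ctrl, as were 64.3% of the 10871 genes with at least 30 UMIs. Every member was lower again in RP_UV than in WT_UV, as were 44.2% of 10969 such genes. Against WT_Ctrl the inducible proteasome subunits had the lowest ratios of the members in both irradiated libraries. Among the heavy chains, H2-K1, a classical chain that presents peptides to CD8 T cells, was at 1853, 1290 and 963.9 UPM. H2-D1, the other classical chain of this strain, was at 1312, 1084 and 856.3 UPM. H2-T23 encodes Qa-1, a non-classical chain read by natural killer receptors, and was at 219, 165.4 and 96.6 UPM. B2m, the light chain that all of them need, was at 1758, 1350 and 995.5 UPM. The 95% intervals of the 3 libraries did not overlap for any of these 4 genes. These intervals cover counting error only and are narrow for abundant genes. The share of all genes without overlap was not computed. RP_UV stood at 0.52 times WT_Ctrl for H2-K1 (95% interval 0.506 to 0.535), 0.653 times for H2-D1 (0.633 to 0.673), 0.441 times for H2-T23 (0.404 to 0.481) and 0.566 times for B2m (0.551 to 0.583).

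The peptide-loading genes followed the same order in keratinocytes. Tap1, one subunit of the ATP-driven transporter, was at 128, 92.3 and 45.4 UPM, so that RP_UV held 0.492 times the level of WT_UV (0.430 to 0.562). Its partner Tap2 was at 56.1, 41.3 and 23.99 UPM. Tapbp, which bridges the transporter and the heavy chain, was at 62.7, 52.9 and 26.7 UPM, and most of its difference lay between the irradiated libraries, with 0.505 times the WT_UV level in RP_UV (0.422 to 0.602). The WT_UV level of Tapbp was 0.844 times that of WT_Ctrl (0.732 to 0.972).

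Psmb8, the inducible chymotrypsin-like subunit, was at 295, 154 and 78.0 UPM in keratinocytes, which is 0.520 times in WT_UV against WT_Ctrl (0.482 to 0.561) and 0.508 times in RP_UV against WT_UV (0.459 to 0.563). Psmb9 was at 184, 94.5 and 53.4 UPM, with ratios of 0.513 (0.466 to 0.565) and 0.565 (0.497 to 0.641) for the same comparisons. These were the only 2 members that were lower by 1.5-fold or more in WT_UV than in WT_Ctrl. Nlrc5, the transactivator of class I genes, was at 23.3, 18.6 and 7.83 UPM from 175, 119 and 61 UMIs. Its level in WT_UV did not separate from that in WT_Ctrl by counting error (ratio 0.798, 0.627 to 1.01), whereas RP_UV held 0.420 times the WT_UV level (0.303 to 0.577).

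**Figure D1:**
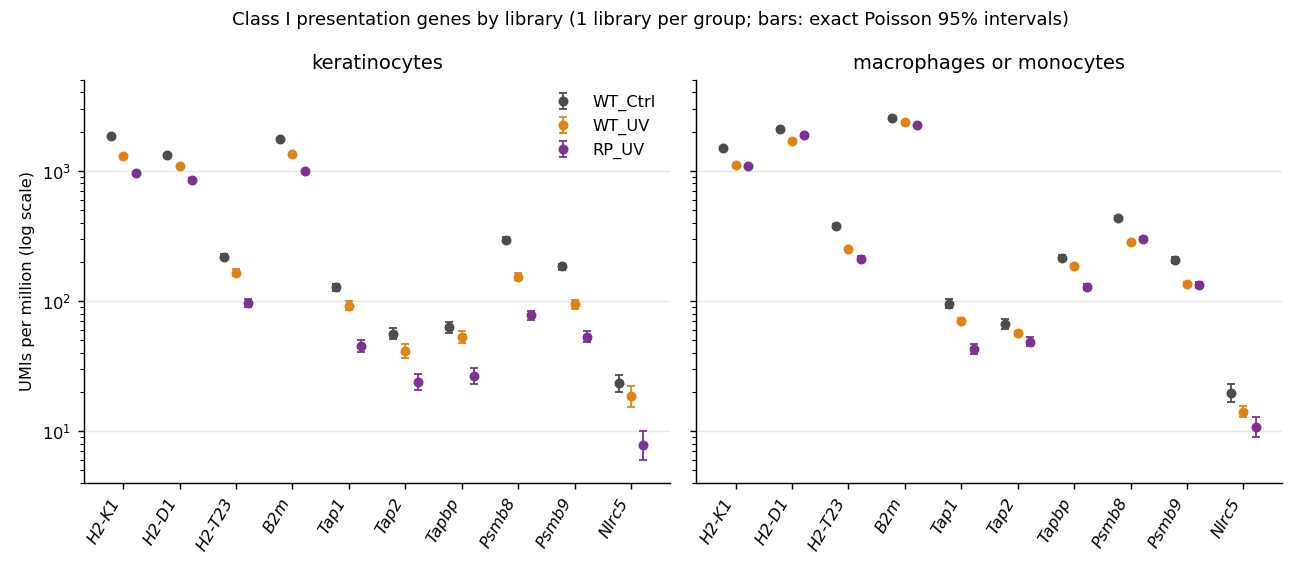
Levels of the 10 genes in UPM (log scale) in keratinocytes and in macrophages or monocytes, with 1 point per library and exact Poisson 95% intervals. In keratinocytes the points step down from WT_Ctrl through WT_UV to RP_UV for every gene, while in macrophages H2-D1 and Psmb8 are slightly higher in RP_UV than in WT_UV.

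Counted by the size of the ratio, 2 of the 10 members were lower by 1.5-fold or more in WT_UV than in WT_Ctrl keratinocytes, against 13.7% of the 10871 genes with at least 30 UMIs, and 0 were higher, against 7.85%. In RP_UV against WT_UV, 7 were lower (13.4% of 10969 genes) and 0 higher (18.6%). In RP_UV against WT_Ctrl, all 10 were lower (22.2% of 11173 genes) and 0 higher (19.1%). The median log2 difference of the members, with a pseudocount of 1 UPM, was −0.42 for WT_UV over WT_Ctrl, −0.79 for RP_UV over WT_UV and −1.20 for RP_UV over WT_Ctrl, while the median over all genes tested was −0.13, 0.07 and −0.05. The split between the 2 steps depended on how cells were weighted. With every cell thinned to 2000 UMIs, 6 members were lower by 1.5-fold or more in WT_UV than in WT_Ctrl. In RP_UV against WT_UV, 2 were. The medians of the members were then −0.60 and −0.49, beside −0.19 and 0.18 over all genes tested. The share of all genes past 1.5-fold was not computed for thinned cells.

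The keratinocyte class differed in make-up between the libraries, so the members were followed within the clusters that held at least 50 cells in both libraries, which had been formed without the members. Cluster 6 was led by the suprabasal keratins Krt1 and Krt10, cluster 7 by Il1r2, Smoc2 and Antxr1, cluster 9 by Krt79, Krt17 and Defb6, and cluster 16 by the proliferation genes Top2a and Mki67. In RP_UV against WT_Ctrl the median log2 difference of the members was −1.11 in cluster 6, −1.30 in cluster 7, −1.01 in cluster 9 and −1.60 in cluster 16. Each of these clusters repeated the direction, and in each all 10 members were below their WT_Ctrl level. Of all genes tested, 59.5%, 56.8%, 57.3% and 54.4% were below it in clusters 6, 7, 9 and 16. The make-up also differed inside them. In cluster 6 a sub-cluster held 210, 28 and 19 cells and another, led by Krt16, held 2, 42 and 146. In cluster 7 a sub-cluster held 200, 17 and 4 cells and another 12, 12 and 71. In cluster 9 a sub-cluster held 0, 19 and 97 cells. The part of this in the medians was not tested. Within clusters 6, 7 and 9 the medians of WT_UV over WT_Ctrl were −0.46, −0.71 and −0.39, and those of RP_UV over WT_UV were −0.44, −0.25 and −0.74. Cluster 16 held 67, 35 and 215 cells and gave no comparison with WT_UV. Clusters 24 and 26 were left out for the same reason, and the latter, led by the lipid genes Elovl3 and Scd3, held 16, 13 and 117 cells with Psmb8 at 18.6, 55.8 and 18.5 UPM.

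Psmb8 showed how far the clusters differed. In cluster 7 it was at 432, 168 and 145 UPM, in cluster 6 at 181, 80.8 and 61.6 UPM, and in cluster 9 at 328, 227 and 95.1 UPM. In cluster 7 most of its difference lay between the wild-type libraries, and in cluster 9 between the irradiated ones.

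**Figure D2:**
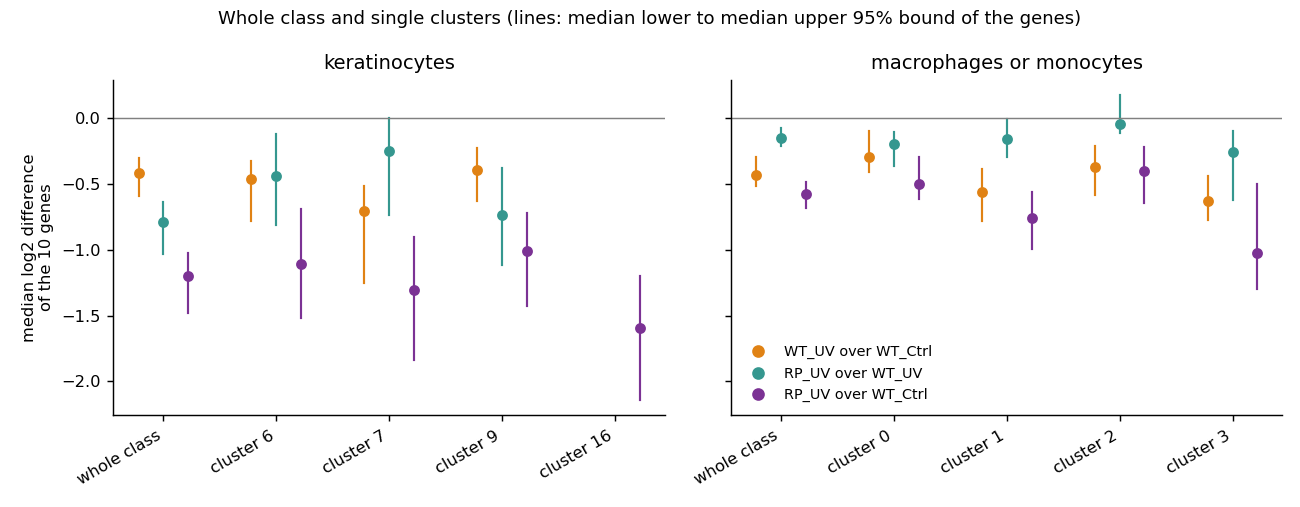
Median log2 difference of the 10 genes in the whole keratinocyte class, in the whole macrophage class and within their first-round clusters with at least 50 cells in both libraries, with lines from the median lower to the median upper 95% bound of the genes. Every point lies below 0, from −0.05 in macrophage cluster 2 for RP_UV over WT_UV to −1.60 in keratinocyte cluster 16 for RP_UV over WT_Ctrl.

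Transcripts of other cells moved with the group in keratinocytes. The summed level of the 12 macrophage markers was 62.5, 190 and 343 UPM, with 11, 11 and 12 of them detected and Ly6c2 at 0 in WT_Ctrl and WT_UV, while macrophages themselves held 22450, 21420 and 28520 UPM. The 8 neutrophil markers, of which 5, 6 and 8 were detected, summed to 85.3, 61.2 and 206 UPM, and Il1r2, which leads cluster 7, is one of them. The part of these transcripts in the results was not tested.

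In macrophages or monocytes all 10 members were also lower in WT_UV than in WT_Ctrl, as were 45.5% of all genes tested. By direction alone, 8 members were lower in RP_UV than in WT_UV, as were 55.3% of all genes tested. For RP_UV over WT_UV the interval of the ratio lay below 1 for 7 members and above 1 for 2. These intervals cover counting error only, and the share of all genes with intervals off 1 was not computed. B2m was at 2555, 2386 and 2227 UPM and H2-K1 at 1505, 1114 and 1080 UPM. H2-D1 was at 2109, 1706 and 1887 UPM, so that WT_UV was the lowest library for this gene. H2-T23 was at 378, 250 and 212 UPM, which is 0.662 times in WT_UV against WT_Ctrl (0.634 to 0.692).

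The inducible subunits in macrophages stood at a similar level in both irradiated libraries, with Psmb8 at 433, 285 and 299 UPM and Psmb9 at 206, 135 and 134 UPM. The ratio of RP_UV to WT_UV was 1.05 for Psmb8 (1.01 to 1.09) and 0.992 for Psmb9 (0.934 to 1.05). Tap1 behaved otherwise and was at 95.7, 70.5 and 42.9 UPM, with 0.609 times the WT_UV level in RP_UV (0.552 to 0.672). Tapbp, at 216, 187 and 129 UPM, and Nlrc5, at 19.7, 14.2 and 10.8 UPM, were also lowest in RP_UV. Tap2 was at 67.1, 56.4 and 48.8 UPM.

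By size, 3 members (H2-T23, Psmb8 and Psmb9) were lower by 1.5-fold or more in WT_UV than in WT_Ctrl macrophages, against 7.39% of the 11849 genes tested, and 0 were higher, against 11.9%. In RP_UV against WT_UV, Tap1 alone was lower (16.2% of 12039 genes) and 0 were higher (9.69%). In RP_UV against WT_Ctrl, 5 were lower (15.6% of 11023 genes), namely H2-T23, Tap1, Tapbp, Psmb9 and Nlrc5, and 0 were higher (16.1%). The medians of the members were −0.43, −0.15 and −0.58 for WT_UV over WT_Ctrl, RP_UV over WT_UV and RP_UV over WT_Ctrl, beside 0.04, −0.06 and 0.02 over all genes tested. The RP_UV over WT_UV median came to −0.05 with cells thinned to 2000 UMIs, which moved it by over 1.5 times, and the difference from the keratinocyte median was not tested.

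Different sub-clusters held most of the macrophage class in the 3 libraries, and the first-round clusters that contain them were compared. Cluster 0, led by the haemoglobin gene Hbb-bs, Enpp2 and Ccl8, held 721, 679 and 615 cells. A single sub-cluster with 3, 12 and 576 cells and a high erythroid score made up most of its RP_UV cells, and it is not part of clusters 1 to 3. Cluster 1 (355, 670 and 681 cells) was led by Cd93, Ccl3 and Ccr1, cluster 2 (545, 466 and 693) by Lyve1, Fcna and Timd4, and cluster 3 (252, 333 and 202) by Fn1, Lyz1 and Mmp12, with the monocyte gene Ly6c2 among its leading genes. The medians of WT_UV over WT_Ctrl were −0.30, −0.57, −0.37 and −0.63 in clusters 0 to 3, so the direction recurred in each. Those of RP_UV over WT_Ctrl were −0.50, −0.76, −0.40 and −1.03. In cluster 2 the 2 irradiated libraries were nearly level, with a median of −0.05 for RP_UV over WT_UV. The make-up also differed inside clusters 1 to 3. In cluster 1 a sub-cluster held 324, 118 and 28 cells and another 0, 12 and 425. In cluster 2 a sub-cluster held 481, 43 and 6 cells, another 57, 411 and 2, and another 7, 12 and 685. In cluster 3 a sub-cluster held 188, 46 and 24 cells and another 0, 172 and 102. The part of this in the medians was not tested.

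Markers of other cells also changed in the macrophage class. The 8 dendritic cell markers summed to 2446, 1307 and 647 UPM, with all 8 detected in WT_Ctrl and WT_UV and Clec9a at 0 in RP_UV. The 13 keratinocyte markers, all detected, summed to 269, 256 and 344 UPM, and the 5 erythroid markers to 1.31, 0.784 and 153 UPM. Their part in the macrophage values was not tested.

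**Figure D3:**
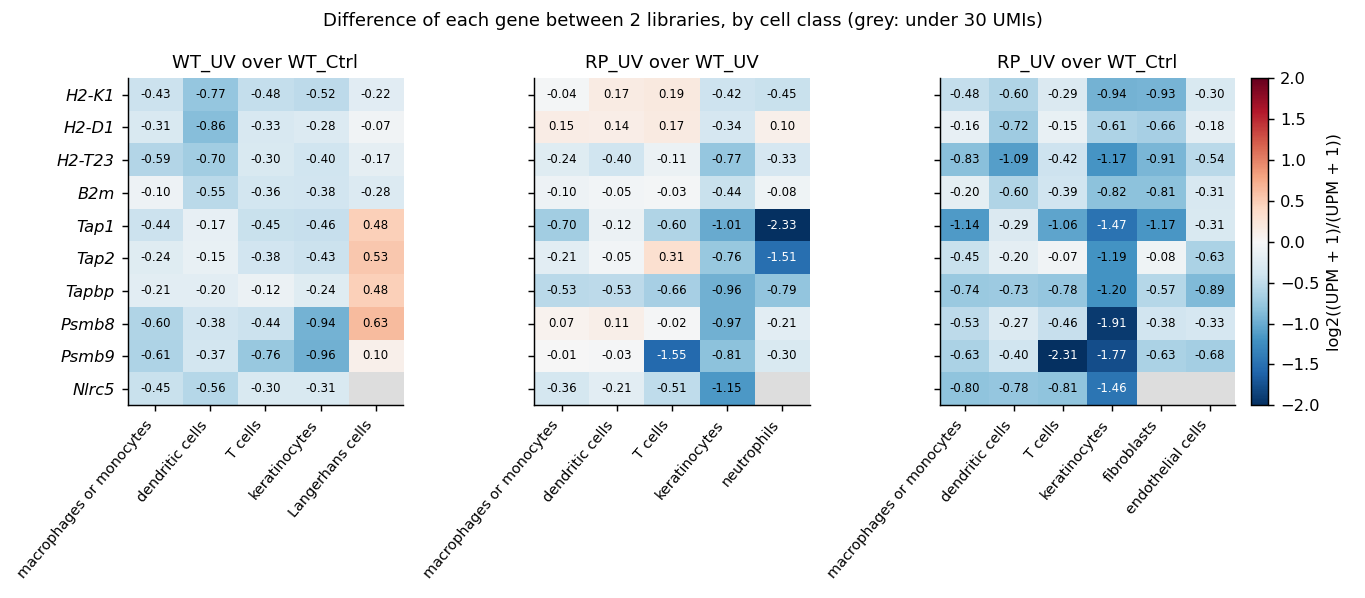
Log2 difference of each gene, log2((UPM + 1)/(UPM + 1)), in the cell classes with at least 50 cells in both libraries, 1 panel per comparison, blue for lower and red for higher, and grey for genes under 30 UMIs. The keratinocyte column of RP_UV over WT_Ctrl runs from −0.61 for H2-D1 to −1.91 for Psmb8, and the Langerhans cell column of WT_UV over WT_Ctrl holds red cells.

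Dendritic cells (498, 486 and 151 cells) had lower ratios of WT_UV to WT_Ctrl for H2-K1, H2-D1, H2-T23 and B2m than the other classes with at least 50 cells in both libraries. H2-D1 was at 2283, 1261 and 1388 UPM, H2-K1 at 1132, 665 and 747 UPM and B2m at 1789, 1225 and 1180 UPM. The levels of these chains in RP_UV were close to those in WT_UV, with ratios of 1.10 for H2-D1 (1.04 to 1.17), 1.12 for H2-K1 (1.03 to 1.22) and 0.963 for B2m (0.904 to 1.03). Tap1 was at 93.5, 83.1 and 76.4 UPM, and the interval of its ratio between the wild-type libraries included 1 (0.889, 0.775 to 1.02). Psmb8, at 604, 464 and 501 UPM, and Psmb9, at 205, 158 and 155 UPM, were lower after UVB by less than 1.5-fold.

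In dendritic cells 4 members were lower by 1.5-fold or more in WT_UV than in WT_Ctrl (8.46% of 10021 genes) and 0 higher (14.0%). These were the 3 heavy chains and Nlrc5, the last from 43 and 81 UMIs. In RP_UV against WT_UV, 0 were lower (19.4% of 9659 genes) and 0 higher (13.2%). In RP_UV against WT_Ctrl, 6 were lower (17.6% of 7842 genes) and 0 higher (19.4%). Different sub-clusters held the class in the libraries: the largest in WT_Ctrl, led by Ear2 and Tnip3, held 155, 81 and 18 cells, another led by Pgf and Mmp12 held 4, 191 and 28, and another led by Tnfsf9 and Ccl17 held 19, 21 and 63. The 12 macrophage markers summed to 1345, 2032 and 2437 UPM in dendritic cells, and the part of either in these values was not tested. The first count went to 0 when clusters were made in each library separately.

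T cells, which present class I and whose CD8 subset reads it, numbered 352, 670 and 54. The class was mixed in make-up. A sub-cluster with the T cell receptor genes Trdc and Tcrg-C1 among its leading genes held 58, 110 and 14 cells. Another such sub-cluster held 13, 73 and 6, and their part in the values was not tested. H2-K1 was at 2466, 1768 and 2022 UPM and H2-D1 at 2408, 1921 and 2165 UPM. Psmb9 was at 207, 122 and 40.9 UPM, but the last value rests on 4 UMIs. By size, Psmb9 alone was lower by 1.5-fold or more in WT_UV than in WT_Ctrl (6.64% of 9304 genes) and 0 were higher (11.4%). In RP_UV against WT_UV, 3 were lower (31.1% of 8965 genes) and 0 higher (20.3%), and in RP_UV against WT_Ctrl, 4 were lower (22.6% of 4604 genes) and 0 higher (15.6%). The share of 3 in 10 was near the background, and the intervals of 9 of the 10 ratios of RP_UV to WT_UV included 1.

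Other classes could be compared for a single pair of libraries. In fibroblasts, with 344 cells in WT_Ctrl and 378 in RP_UV, H2-K1 was at 1012 and 531 UPM (ratio 0.525, 0.480 to 0.573) and B2m at 1320 and 750 UPM. The fibroblasts lay in different sub-clusters, such as 2 led by Crabp1 with 136 and 43 cells in the first and 17 and 156 in the other, and a collagen-led one with 68 and 1. Tap2 hardly differed there, at 40.9 and 38.6 UPM (0.944, 0.645 to 1.38). In endothelial cells, with 79 and 256 cells, H2-K1 was at 1552 and 1256 UPM and Tapbp at 203 and 109 UPM (0.538, 0.384 to 0.764). In Schwann cells, with 83 and 245 cells, H2-D1 was at 1520 and 597 UPM (0.393, 0.329 to 0.469). The heavy chains named here were thus lower in RP_UV in all 3 of these stromal classes. The median log2 difference of the members was −0.74 in fibroblasts and −0.43 in endothelial cells, beside 0.14 and −0.02 over all genes tested.

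In neutrophils, 56 cells of WT_UV were compared with 561 of RP_UV. H2-D1 (1602 and 1714 UPM) and B2m (1629 and 1540 UPM) differed little, whereas Tap1 was at 119 and 22.9 UPM (ratio 0.193, 0.101 to 0.368) and Tap2 at 113 and 39.2 UPM (0.346, 0.197 to 0.624), each from fewer than 40 UMIs in a library. Tapbp was also lower, at 210 and 121 UPM (0.575, 0.396 to 0.851). Of the WT_UV cells 44 lay in a sub-cluster with 80 of RP_UV, whereas 356 of the RP_UV cells lay in another with 8 of WT_UV. The macrophage markers in the class summed to 647 and 1298 UPM, and the part of these differences in the values was not tested. In Langerhans cells, with 69 cells in each wild-type library, Psmb8 was higher after UVB, at 328 and 509 UPM (1.55, 1.26 to 1.93). These cells lay in different sub-clusters, with 35 and 30 of the WT_Ctrl cells in 2 sub-clusters that held 10 and 8 of WT_UV, and 51 of the WT_UV cells in another that held 4 of WT_Ctrl. The 12 macrophage markers summed to 965 and 1704 UPM and the 6 mature dendritic cell markers to 0 and 120 UPM, and their part in the Psmb8 value was not tested. The heavy chains were near level there, with H2-K1 at 555 and 476 UPM and H2-D1 at 792 and 753 UPM.

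The summed level of the 10 members gives the order of the classes with at least 50 cells in a library. In WT_Ctrl it ran from T cells (8674 UPM) and macrophages (7584) through dendritic cells (6671), endothelial cells (6102) and keratinocytes (5891) to Schwann cells (4381), fibroblasts (4215) and Langerhans cells (3731). In RP_UV it ran from T cells (6894) and macrophages (6070) through endothelial cells (4908), dendritic cells (4353) and neutrophils (4339) to keratinocytes (3148), fibroblasts (2486), Schwann cells (2028) and pericytes or smooth muscle (1576). By counting error, endothelial cells and keratinocytes could not be ordered in WT_Ctrl, nor Schwann cells and fibroblasts there, nor dendritic cells and neutrophils in RP_UV. Over all immune classes the sum was 7361, 5758 and 5822 UPM, and over all non-immune classes 5542, 4284 and 3106 UPM. In such sums fewer expressing cells and less RNA per cell cannot be told apart.

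In single cells thinned to 2000 UMIs, the low, middle and high parts of the keratinocyte distribution moved together. In keratinocytes the summed members had a median of 11, 8 and 6 UMIs per cell, with quartiles of 8 and 15, 6 and 11, and 4 and 9, from 1031, 394 and 829 cells. The share of these cells with no UMI of any member was 0.582%, 0% and 1.93%. In macrophages the medians were 15, 11 and 12 UMIs, from 1653, 2115 and 2044 cells. At this depth 38.3%, 20.1% and 15.8% of keratinocytes held a Psmb8 UMI, and 95.5%, 90.9% and 80.0% a B2m UMI. The levels over all cells ran in the same order for both genes. No class here is known to lack these genes, so no share could serve as a background for free RNA. Shallower cells were left out, namely 136, 119 and 255 keratinocytes and 237, 83 and 186 macrophages.

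**Figure D4:**
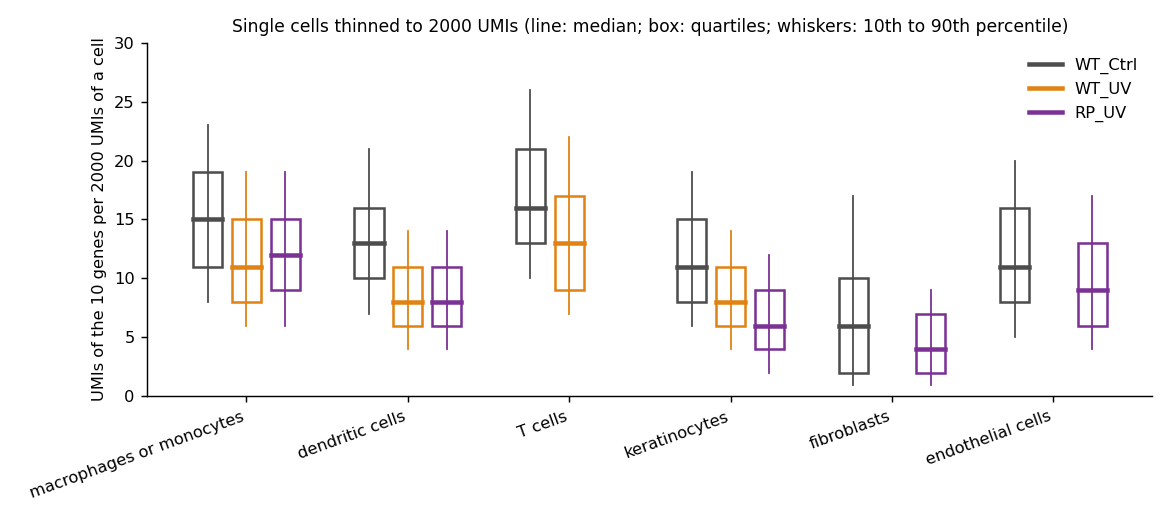
UMIs of the 10 genes in single cells thinned to 2000 UMIs, by class and library, with the median as a line, the quartiles as a box and the 10th to 90th percentile as whiskers. Keratinocyte medians step down from 11 to 8 to 6, while macrophage medians are 15, 11 and 12; libraries with fewer than 50 deep enough cells are not drawn.

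The standard proteasome subunits that the inducible ones replace did not share the pattern. In keratinocytes Psmb5, the partner replaced by Psmb8, was at 233, 257 and 408 UPM, Psmb6, replaced by Psmb9, at 242, 256 and 365 UPM, and Psmb7, replaced by Psmb10, at 126, 150 and 180 UPM. Of these 3 subunits, 0 were lower and 2 were higher by 1.5-fold or more in RP_UV than in WT_Ctrl keratinocytes. Of all 11173 genes tested, 22.2% were lower and 19.1% higher. UMIs of Psmb8 per UMI of Psmb5 were 1.27 (1.19 to 1.35), 0.596 (0.551 to 0.646) and 0.191 (0.175 to 0.209) in the same cells. UMIs of Psmb9 per UMI of Psmb6 were 0.762, 0.370 and 0.146, so both of these ratios were lower in WT_UV than in WT_Ctrl and lower again in RP_UV. UMIs of Psmb10 per UMI of Psmb7 were 0.416 (0.369 to 0.468), 0.246 (0.213 to 0.284) and 0.199 (0.175 to 0.227), and the intervals of the irradiated libraries overlapped. Within cluster 6 this last ratio was 0.223, 0.164 and 0.201, and over all non-immune classes it was 0.559, 0.262 and 0.334, so it was not lower in RP_UV than in WT_UV there. These 3′ counts are not corrected for how well each gene is captured, so the change of a ratio between libraries can be read but not its size in a library.

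In macrophages Psmb8 per Psmb5 was 3.57, 2.23 and 1.46, and Psmb9 per Psmb6 was 1.37, 0.923 and 0.604. Psmb8 itself differed little between WT_UV and RP_UV there, and the lower ratio in RP_UV stood beside a higher level of Psmb5, which was at 121, 128 and 205 UPM. In dendritic cells Psmb8 per Psmb5 was 4.08, 3.17 and 2.28, and in fibroblasts 1.25 in WT_Ctrl and 0.576 in RP_UV. Psmb10 per Psmb7 in macrophages was 2.38, 1.51 and 1.41, and in their cluster 1 it was 2.61, 1.42 and 1.49. Langerhans cells ran the other way, with Psmb8 per Psmb5 at 1.83 (1.32 to 2.56) in WT_Ctrl and 2.85 (2.39 to 3.40) in WT_UV, while Psmb9 per Psmb6 was 1.14 and 1.01 there.

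**Figure D5:**
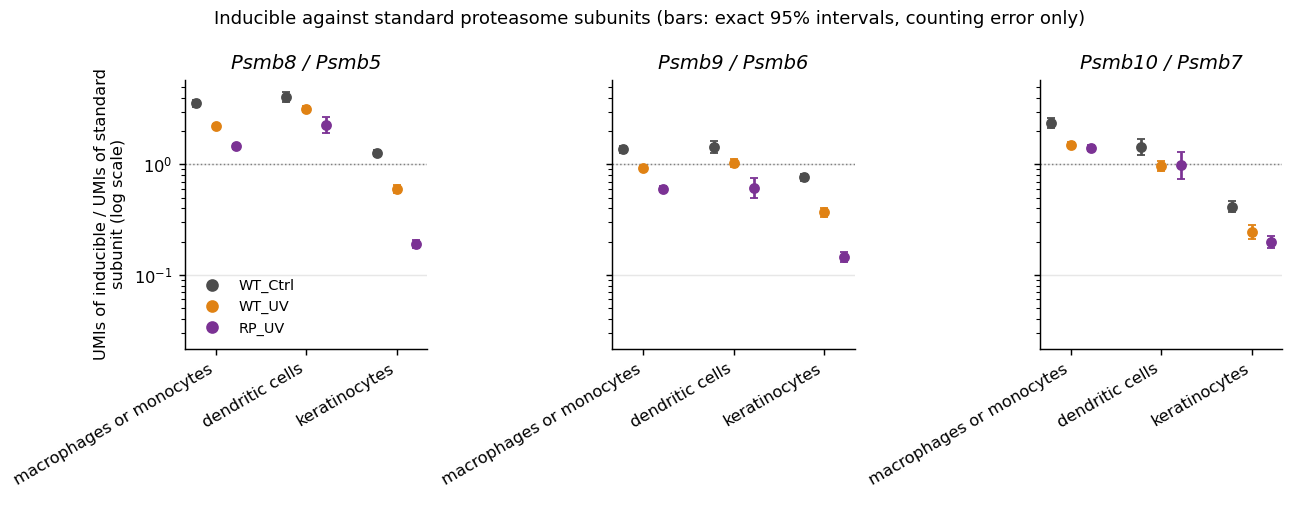
UMIs of each inducible proteasome subunit per UMI of the standard subunit it replaces (log scale), in 3 cell classes and 3 libraries, with exact 95% intervals. Psmb8/Psmb5 in keratinocytes drops from 1.27 to 0.596 to 0.191, and in macrophages from 3.57 to 2.23 to 1.46.

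Further genes of the pathway were described from a list of 18. In keratinocytes 8 of the 17 with at least 30 UMIs were lower by 1.5-fold or more in RP_UV than in WT_Ctrl and 2 were higher, beside 22.2% and 19.1% of all genes tested. The lower genes were mostly class Ib heavy chains. H2-Q7, a Qa-2 antigen gene, was at 433, 263 and 115 UPM, H2-Q6 at 89.4, 55.2 and 11.7 UPM, H2-Q4 at 101, 64.3 and 23.7 UPM and H2-T22 at 160, 105 and 49.7 UPM. The heavy-chain genes are near-identical in places, and Cell Ranger counts only reads that map to a single gene, so their separate levels, those of H2-K1 and H2-D1 included, are uncertain. Erap1, which trims peptides in the endoplasmic reticulum, was at 24, 18.77 and 10.52 UPM.

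The general chaperones of the loading complex differed from these. Calr, calreticulin, was at 204, 256 and 347 UPM in keratinocytes (1.70 times in RP_UV against WT_Ctrl, 1.60 to 1.81), and Pdia3 was at 284, 280 and 402 UPM. Psme2, a proteasome activator subunit, was at 280, 194 and 276 UPM. In macrophages 4 of the 18 listed genes were lower by 1.5-fold or more in RP_UV than in WT_Ctrl (H2-Q4, H2-Q6, H2-Q7 and Tapbpl), a share not far from the 15.6% of all genes tested, and 0 were higher, with H2-Q7 at 75.5, 42.2 and 21.9 UPM.

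Regulators of the class I genes were counted from a list of 12. In keratinocytes 6 of the 11 tested were lower by 1.5-fold or more in WT_UV than in WT_Ctrl and 8 of 11 in RP_UV than in WT_Ctrl, with 0 higher in either, beside 13.7% and 22.2% of all genes tested that were lower. Irf1, an interferon-induced activator of these promoters, was at 37.9, 20.8 and 11.7 UPM. Irf1 was thus lower in WT_UV than in WT_Ctrl and lower again in RP_UV. Ifngr1, the ligand-binding chain of the interferon-γ receptor, was at 131, 54.1 and 48.9 UPM. Of the 8 listed interferon and receptor genes, 4 were tested in keratinocytes. There 1 was lower by 1.5-fold or more in WT_UV and 2 in RP_UV than in WT_Ctrl, beside 13.7% and 22.2% of genes tested. In both comparisons 0 were higher, beside 7.85% and 19.1%. In dendritic cells all 4 tested were higher in RP_UV than in WT_Ctrl, beside 19.4%. In Langerhans cells the list's median log2 difference for WT_UV over WT_Ctrl was 1.45, beside −0.002 over all genes. In macrophages, Irf1 was at 117, 98.3 and 73.7 UPM. In WT_UV against WT_Ctrl, 0 of 12 regulators were lower by 1.5-fold or more and 1 was higher, beside 7.39% and 11.9% of genes tested. In RP_UV against WT_Ctrl, 6 of 12 were lower and 1, Irf7, was higher, beside 15.6% and 16.1%.

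Ifng, the gene of interferon-γ, was measured mainly in T cells, at 278, 145 and 153 UPM, the last from 54 cells. WT_UV held 0.523 times the WT_Ctrl level (0.453 to 0.607). In keratinocytes Ifng was at 0.133, 0 and 0.385 UPM, and Ifnb1, Ifnl2 and Ifnl3 had no UMI there. The CD8 co-receptor, which binds class I, was also lower in the T cell class, with Cd8a at 277, 115 and 143 UPM and Cd8b1 at 287, 140 and 143 UPM. A T cell sub-cluster with Gzmc and Cd8b1 among its leading genes held 73 of 352, 65 of 670 and 5 of 54 T cells. Its part in the Cd8a, Cd8b1 and Ifng values was not tested. Of the 11 listed receptors that read class I, 9 were tested in T cells for WT_UV over WT_Ctrl. Of these, 4 were lower (Cd8a, Cd8b1, Klrc1 and Klrc2), beside 6.64% of all genes tested. The 2 higher ones were Klra1 and Klra9, each from under 10 UMIs in WT_Ctrl, beside 11.4% of all genes tested. For RP_UV over WT_UV, 0 of 8 were lower, beside 31.1% of all genes tested. In that comparison 4 were higher (Klrc1, Klra1, Klra9 and Pirb), each from at most 3 UMIs in RP_UV, beside 20.3%. Whether fewer T cells carried these transcripts or each carried less was not separated.

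The genes whose levels ran most like the members were ranked by the Pearson correlation of log2(UPM + 1) with the mean standardised member profile over 24 class-by-library values. Tet3 (r = 0.778), Cyth1 (0.756) and Ptger4 (0.737), a receptor of prostaglandin E2, came first among 13839 genes that reached at least 10 UPM in some value. The list of 10 also held Tapbpl (0.712), a tapasin homologue, and Psme2b (0.708). The members themselves correlated with their mean profile at 0.613 for Tapbp to 0.894 for H2-D1. The 24 values share libraries and differ in depth, so these figures only describe likeness.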

How the data were processed

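The deposited matrices hold whole, unnormalized UMI counts for each gene in each called cell, which the authors made with Cell Ranger (6.1.1 per the file headers) against mm10. Cells with under 10% mitochondrial UMIs, more than 200 genes and fewer than 4000 genes (6000 in WT_UV, per the methods of the study) were kept. The summed counts of the kept cells were 25795684, 64556621 and 29128981 UMIs in WT_Ctrl, WT_UV and RP_UV. Libraries were integrated with SCTransform in Seurat 5.3.0 (sctransform 0.4.2, R 4.3.3, 30 dimensions, resolution 0.8) into 28 clusters and split with leidenalg 0.10.2 into 139. The members and the wider pathway list were left out of clustering. Clusters were named from 20 marker panels, and 42 stayed unnamed, holding 669, 975 and 836 cells; the naming limits (a minimum score of 1, 0.5 above the next panel, 3 detected markers, no immunoglobulin-led cluster, and none that was deep and also scored on a panel of another lineage, the erythroid panel aside) were set after the clusters had been seen. Setting the erythroid panel aside kept 1 macrophage cluster of 591 cells, 576 of them from RP_UV, at a relative depth of 1.42. No doublets were removed, since Scrublet (scanpy 1.11.5) marked 1.32%, 0.019% and 0.033% of cells, too few in the last 2 libraries to be used.

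Intervals are exact: Poisson for levels, conditional binomial for ratios. A gene was counted when at least 30 UMIs fell in the 2 libraries of a class, with at least 50 cells in each, and its ratio passed 1.5-fold. The median's interval runs from the median lower to the median upper bound of the genes. The comparison code was tested on simulated data. All members are named, and other genes come from the pathway, proteasome, regulator, interferon and receptor lists where they pass 1.5-fold, are set against a member or bear on the description. The members and lists were chosen with earlier results of these data known. Promoter sequences and positions are from RefSeq, GRCm38.p6, the build of mm10. The motif letters were written by hand from general knowledge of class I promoters and searched for as they stand.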

Additional observations from a re-analysis of the deposited data

Results flagged for a closer look

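Psmb8 in Langerhans cells was singled out because it was higher in WT_UV than in WT_Ctrl by a ratio of 1.55, while it was lower by 1.5-fold or more in 2 other classes, macrophages (0.658) and keratinocytes (0.520). The difference between the classes was not tested. The 2 libraries fill different sub-clusters of this class, with 51 of the WT_UV cells in a sub-cluster that held 4 of WT_Ctrl, and the part of this in the value was not tested. The Langerhans cell value rests on 69 cells in each library, with 108 UMIs of Psmb8 in WT_Ctrl and 498 in WT_UV.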

How the results depend on the processing

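Every direction of the 6 medians held under each alternative run. With cells thinned to 2000 UMIs the medians were −0.054 in macrophages for RP_UV over WT_UV, and −0.60 and −0.49 in keratinocytes for WT_UV over WT_Ctrl and RP_UV over WT_UV. As a mean over cells they were −0.48 in macrophages for RP_UV over WT_Ctrl and −0.55 in keratinocytes for RP_UV over WT_UV. Clusters made in each library gave −0.60 and −0.40 in keratinocytes for WT_UV over WT_Ctrl and RP_UV over WT_UV, the median-of-ratios size factor −0.28 for the former, and a pseudocount of 10 UPM −0.97 for RP_UV over WT_Ctrl. Within first-round clusters, added after seeing the data, macrophages gave −0.57 and −0.63 (clusters 1 and 3, WT_UV over WT_Ctrl), −0.050 and −0.26 (clusters 2 and 3, RP_UV over WT_UV) and −0.76, −0.40 and −1.03 (clusters 1, 2 and 3, RP_UV over WT_Ctrl), and keratinocytes −0.71 (cluster 7, WT_UV over WT_Ctrl), −0.44 and −0.25 (clusters 6 and 7, RP_UV over WT_UV) and −1.01 and −1.60 (clusters 9 and 16, RP_UV over WT_Ctrl).

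The share of all genes past 1.5-fold was not computed for the alternative runs, so the counts below have no background. Counts of members lower by 1.5-fold moved in keratinocytes to 5 (mean over cells), 6 (thinned) and 5 (clusters per library) for WT_UV over WT_Ctrl, and to 4, 2 and 3 for RP_UV over WT_UV. In dendritic cells they moved to 2 (thinned) and 0 (clusters per library) for WT_UV over WT_Ctrl, and for RP_UV over WT_UV to 1 (mean over cells), 1 (thinned), 2 (classes from marker UMIs) and 2 (without the 5% of cells with the highest Scrublet scores). In T cells they moved to 2 (classes from marker UMIs) and 2 (every cluster given to its best panel, added after seeing the data) for WT_UV over WT_Ctrl, to 0, 1 and 1 (classes from marker UMIs, clusters per library, best panel) for RP_UV over WT_UV, and to 2 (classes from marker UMIs) and 0 (a floor of 300 UMIs) for RP_UV over WT_Ctrl. Of 1556 member differences recomputed over all classes, 1336 stayed within their interval, 217 moved outside it and 3 reversed, which were Tap2 in keratinocytes for RP_UV over WT_UV (0.091 with clusters per library), Nlrc5 in dendritic cells for WT_UV over WT_Ctrl (0.20 thinned) and Psmb8 in Schwann cells for RP_UV over WT_Ctrl (0.36 with clusters per library). The cause was not tested. With 1 library per group no replicate could be left out, and counting depth limits Nlrc5, Tap1 and Tap2 outside the large classes. No paired analysis was possible because each group had 1 library.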

Other observations

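A macrophage sub-cluster with Iigp1 and Gbp2b, known as genes induced by interferon-γ, among its leading genes held 72, 16 and 2 cells in WT_Ctrl, WT_UV and RP_UV. It and the next were chosen for description after their values had been seen. In its WT_Ctrl cells H2-T23 was at 718 UPM, Tap1 at 288 UPM, Psmb8 at 858 UPM and Nlrc5 at 86.7 UPM, above the 378, 95.7, 433 and 19.7 UPM of the whole macrophage class in that library. Another sub-cluster, with the interferon-stimulated genes Ifit3, Rsad2 and Ifit2 among its leading genes and left unnamed, held 13, 51 and 41 cells. Its WT_UV cells had Tap1 at 177 UPM and Nlrc5 at 42.1 UPM.

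Mature dendritic cells (15, 33 and 3 cells), which are specialised for priming T cells, had Psmb8 at 1879, 1345 and 1531 UPM. Mast cells (30, 98 and 44 cells) had no UMI of Nlrc5 in any library, which allows up to 80.8, 13.7 and 42.3 UPM, and held Tap1 at 53.9, 4.56 and 42.3 UPM from 2, 1 and 3 UMIs.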
